A study of Homo sapiens with 12 samples.

Results

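Genes of protein folding in the endoplasmic reticulum (ER) and of the unfolded protein response were followed in THP-1 macrophage-like cells, as 38 genes chosen by symbol. Of these, 36 had a probe set listed under exactly 1 gene symbol on the array, out of 18132 such genes in all, and each was read from its brightest probe set over 12 arrays. All 36 passed the filter on low signal, along with 13909 genes in total. TXNDC5 and SEC61G had no probe set under 1 symbol alone and carry no value here.

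Messenger RNA was measured on Affymetrix PrimeView arrays, and the values are log2 expression values, so a difference of 1 is a 2-fold change. THP-1 is an established human monocytic leukaemia line, and every group had been differentiated with 100 ng/ml of the phorbol ester PMA for 48 hours. The arrays form 4 groups of 3: cells kept at 37 °C, cells kept at 40 °C, control cells, and cells given an inhibitor of a thermomiR, the study's name for a temperature-responsive microRNA. Harvests at 2, 8 and 24 hours of 40 °C are described, and the arrays are not assigned to any of them. For the last pair of groups, the labels' protocol describes differentiation at 40 °C, nucleofection with a hairpin microRNA inhibitor together with a GFP plasmid, and sorting of GFP-positive cells 24 hours later. The hairpins described target miR-143, miR-142 or ThermoMIR-1, and a non-human hairpin served as control. The array labels say only siThermomir or control (siRNA or WT in the titles), so neither the microRNA blocked nor the hairpin given to the controls is known. Nothing says that replicates are separate cultures, and the p-values therefore reflect the spread of these arrays, which may be technical. In bulk RNA of this kind, fewer cells of a type and less RNA per cell cannot be told apart.

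Proteins that enter the secretory pathway cross the ER membrane through the SEC61 channel and fold in the lumen with the help of chaperones, disulfide isomerases and the lectin cycle of calnexin and calreticulin. Chains that fail to fold are returned to the cytosol and degraded, a route called ER-associated degradation. Unfolded protein in the lumen is sensed by the membrane proteins IRE1 (gene ERN1), PERK (EIF2AK3) and ATF6, and the transcription factors XBP1, ATF6 and ATF4 then raise the genes of folding and degradation. Macrophages use this route to make their cell-surface receptors, secreted cytokines and lysosomal enzymes.

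Several of these genes carry a known element for ATF6 and XBP1 in their promoters, and these stretches are shown because the same letters recur across genes that moved in different ways. The 250 bases before the start of each gene were searched on both strands in RefSeq promoters of GRCh38.p14, where 35 of the 38 genes have an entry (DERL1, DERL3 and PDIA3 do not). The ER stress response element (ERSE, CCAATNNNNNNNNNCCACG) was in 8 of the 35, which is 22.9%, against 0.0916% of 27305 genes and 0.074% of 35116 promoters. They were HSPA5, HSP90B1, XBP1, PDIA6, CANX, CALR, CRELD2 and ERO1B. The 38 genes were chosen as genes of ER folding and this response, so these shares describe the list and test nothing. In the lines below the capitals mark the fixed letters of the element, read 5′ to 3′ on the strand of the gene, and the reverse orientation shows as CGTGG before ATTGG.
HSPA5 (chr9:125241379-125241421, minus strand): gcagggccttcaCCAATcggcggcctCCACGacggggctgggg
XBP1 (chr22:28800591-28800633, minus strand): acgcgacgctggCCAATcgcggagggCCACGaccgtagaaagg
PDIA6 (chr2:10812841-10812883, minus strand): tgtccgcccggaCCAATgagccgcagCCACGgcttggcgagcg
CANX (chr5:179698766-179698808, plus strand): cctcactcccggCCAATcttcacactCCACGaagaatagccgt
HSP90B1 (chr12:103930204-103930246, plus strand): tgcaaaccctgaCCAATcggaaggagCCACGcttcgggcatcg
HSP90B1 (chr12:103930309-103930351, plus strand): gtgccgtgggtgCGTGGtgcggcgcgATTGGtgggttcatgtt
CALR (chr19:12938372-12938414, plus strand): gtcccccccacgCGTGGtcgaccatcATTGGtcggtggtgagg
CRELD2 (chr22:49918542-49918584, plus strand): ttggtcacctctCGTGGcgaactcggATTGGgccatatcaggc

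A shorter form, ERSE-II (ATTGGNCCACG), was in 3 of the 35 genes, or 8.57%, against 0.0659% of all genes and 0.0513% of promoters. HERPUD1 and SDF2L1 held it at 1 place and HYOU1 at 2.
HERPUD1 (chr16:56932013-56932047, plus strand): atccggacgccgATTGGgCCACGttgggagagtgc
HYOU1 (chr11:119057262-119057296, minus strand): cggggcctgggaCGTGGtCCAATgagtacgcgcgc
HYOU1 (chr11:119057368-119057402, minus strand): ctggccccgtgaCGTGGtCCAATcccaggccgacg
SDF2L1 (chr22:21642102-21642136, plus strand): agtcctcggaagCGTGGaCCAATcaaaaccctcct

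The XBP1-type element (UPRE, TGACGTGG) was in HYOU1, SSR3 and TXNDC5, against 0.78% of all genes and 0.612% of promoters, and in HYOU1 it overlaps an ERSE-II. The ATF4-type element (CARE, TGATGNAA) was in HERPUD1, against 3.89% of all genes and 3.14% of promoters. A match describes letters in this window and not a bound site. Of the 11 genes with an ERSE or ERSE-II, 4 were called higher and none lower at 40 °C, and 5 were called higher and 4 lower with the inhibitor. Among all genes tested, 21.6% were called higher and 17.7% lower at 40 °C, and 25.6% and 19.6% with the inhibitor. Of the 22 tested genes with an entry and neither element, the counts were 8 and 5 at 40 °C and 7 and 7 with the inhibitor. Genes that share the element went in both directions with the inhibitor: CRELD2, CANX, PDIA6, HSP90B1 and, on its brightest probe set only, HYOU1 were called higher, and CALR, HERPUD1, XBP1 and HSPA5 lower.

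Read from the brightest probe sets, HERPUD1, EDEM2, XBP1 and SSR3 had the largest increases at 40 °C over 37 °C. EDEM1, EDEM3 and PDIA5 had the largest decreases, while the lumenal chaperones HSPA5 and HSP90B1 were not called. The directions of SSR3 and EDEM1 depend on the probe set, as given with each gene below. With a call meaning an adjusted p under 0.05 in limma, 14 of the 36 genes (38.9%) rose, beside 21.6% of all 13909 genes tested, and 5 (13.9%) fell, beside 17.7%. The other 17 were not called. The differences were small, the largest being 0.63 for HERPUD1. None reached 2-fold, a size that 1.01% of all genes tested reached with a call. The median difference was 0.07 for the 36 genes and 0.01 for all genes tested, and the 2 groups did not overlap for 25 of the 36 (69.4%), beside 49.5% of all genes. With the mean signal of the poly-A spikes, described below, as a covariate, 3 of the 36 were called higher and 3 lower. Of all 13909 genes tested, 1220 were then called higher and 1453 lower. XBP1 was not called in that fit (0.31, limma adjusted p = 0.0751).

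With the inhibitor, the 36 genes divided. Of these, 12 (33.3%) rose, beside 25.6% of all genes tested, 13 (36.1%) fell, beside 19.6%, and 11 were not called. The median difference of the 36 was 0.003, against 0.09 for all genes, and the groups did not overlap for 27 (75.0%), beside 54.1% of all genes. CALR, HERPUD1 and CRELD2 changed by over 2-fold, 3 of 36 beside 3.39% of all genes tested. The poly-A spikes, control transcripts added before labelling, also differed between these 2 groups (mean log2 7.07 ± 0.35 in the controls and 5.83 ± 0.27 with the inhibitor, SD, n = 3). With the mean spike signal added to the fit as a covariate, 1 of the 36 genes was called higher (CRELD2) and 0 lower in limma. At an unadjusted p under 0.05, 6 were lower, among them EDEM1, which had no call without the covariate. CRELD2, OS9, HYOU1, CANX and SEC61A1 were higher at that threshold (limma unadjusted p = 0.000266 to 0.0434). The sign of the difference was kept by 34 of the 36. The spike ranges of the controls (6.81 to 7.47) and the inhibitor arrays (5.51 to 6.0) do not overlap, so spike level and inhibitor cannot be told apart here.

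The 2 comparisons share no arrays. In limma on all 12 arrays, the difference between the inhibitor effect and the temperature effect was called for 26 of the 36 genes (72.2%), beside 44.2% of all genes. Called in opposite directions were 8 of the 36 (22.2%), beside 8.99% of all genes. HERPUD1, XBP1, DERL1, DERL2 and SSR3 were higher at 40 °C and lower with the inhibitor, and EDEM3, OS9 and SSR1 were lower at 40 °C and higher with the inhibitor. Called in the same direction were 5 of the 36, beside 13.8% of all genes: HYOU1, PDIA6, SYVN1 and SEC61A1 were higher in both comparisons and PDIA5 lower in both. The directions of HYOU1 with the inhibitor and of SEC61A1 at 40 °C depend on the probe set, as given with each gene below. The count of 8 was 6 with the replicate number as a block, 4 with the mean of each gene's probe sets (HERPUD1, DERL2, SSR1 and XBP1), 5 with the GAPDH covariate described below and 0 with the spike covariate, and it lay between 5 and 14 under the other settings. SDF2L1, TXNDC11, ERO1B, SEC61B and ERN1 were called in neither.

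**Figure D1:**
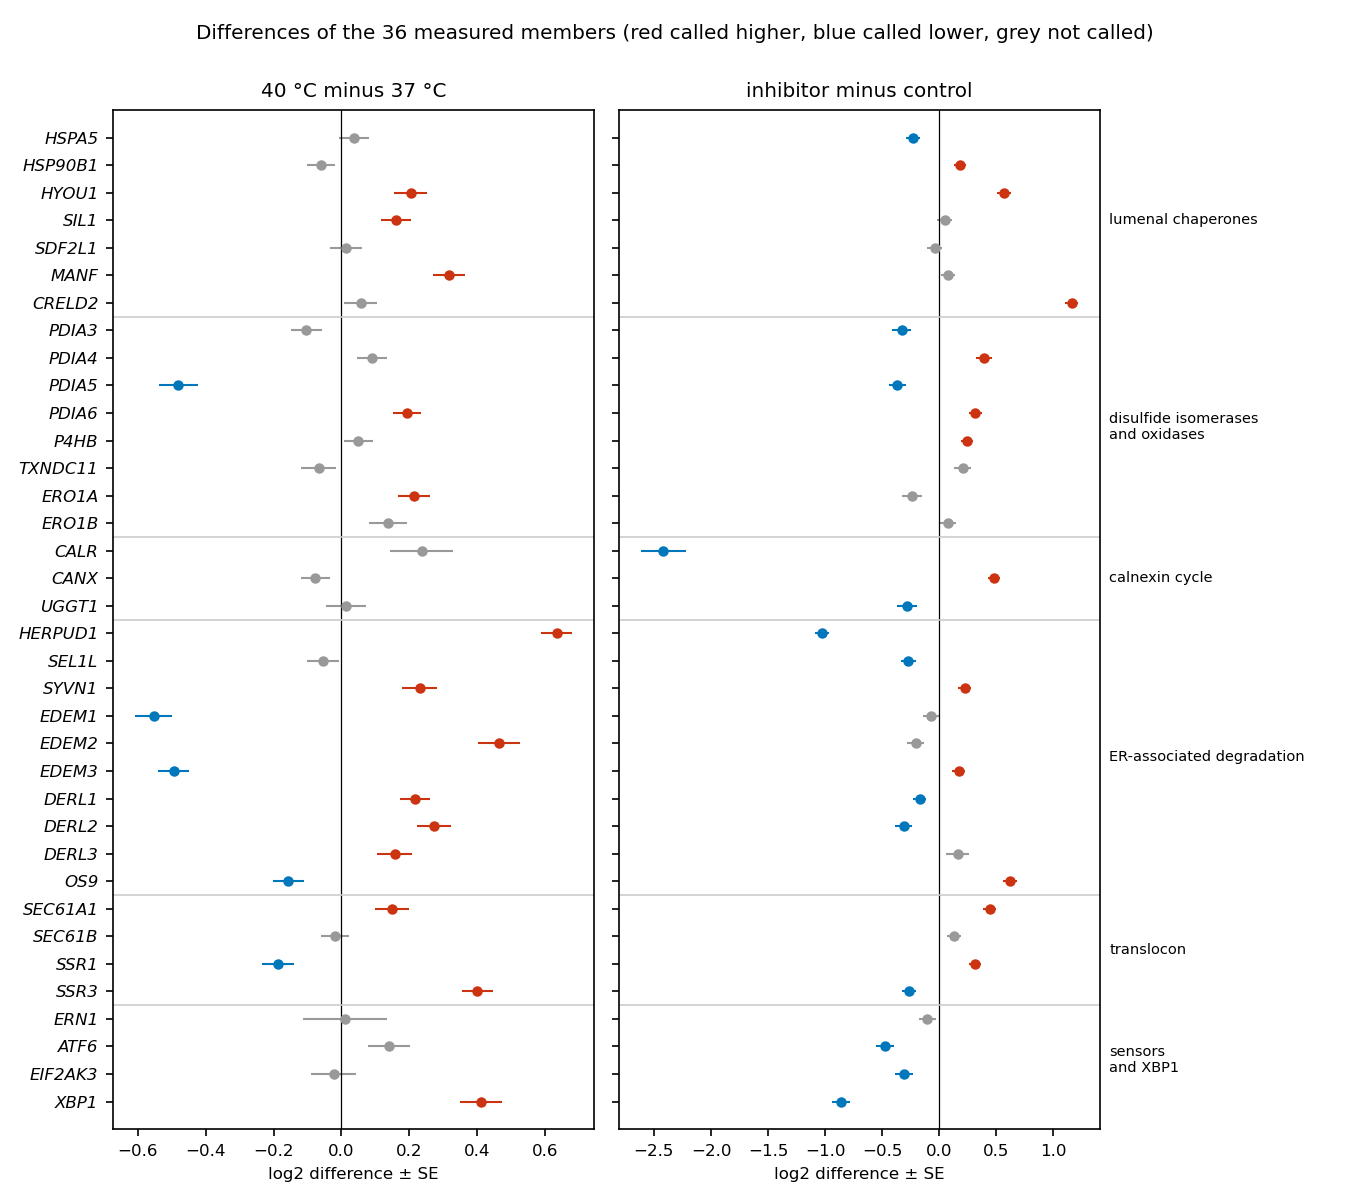
Log2 difference ± SE of each of the 36 measured genes at 40 °C against 37 °C (left) and with the inhibitor against the control (right), 3 arrays a group, ordered by role, with the 2 axes on different scales. Red points were called higher, blue lower and grey not called. HERPUD1 lies farthest to the right at 40 °C (0.63) and CALR farthest to the left with the inhibitor (-2.42).

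XBP1, the transcription factor whose messenger IRE1 splices, was among the genes that went up at 40 °C and down with the inhibitor. It read 8.89, 9.03 and 8.89 on the arrays at 37 °C and 9.26, 9.42 and 9.36 at 40 °C. Every array at 40 °C was above every array at 37 °C, by 1.33-fold in the means (log2 difference 0.41, SE 0.06, limma adjusted p = 0.00127). The controls read 9.79, 9.79 and 9.90, and the inhibitor arrays 8.91, 9.12 and 8.87. All inhibitor arrays were below all controls, a 1.81-fold lower mean (log2 difference -0.86, SE 0.08, adjusted p = 0.000189). The difference between the 2 effects was -1.27 (SE 0.10, adjusted p = 1.87e-06). XBP1 has 1 probe set here, and the values do not separate its spliced and unspliced forms.

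Of the 3 stress sensors, none was called at 40 °C, beside 21.6% higher and 17.7% lower of all genes tested. With the inhibitor 2 were lower, beside 19.6% of all genes. ATF6, a membrane protein that is cut in the Golgi to free a transcription factor, read 9.01, 9.01 and 9.07 at 37 °C and 9.11, 9.10 and 9.30 at 40 °C. These groups did not overlap, yet the difference of 0.14 (SE 0.06) was not called (limma adjusted p = 0.12). It read 9.44, 9.31 and 9.30 in the controls and 8.75, 8.98 and 8.89 with the inhibitor, where every array lay below every control (log2 difference -0.48, SE 0.08, 1.39-fold, adjusted p = 0.00218). The 2 effects on ATF6 differed by -0.62 (adjusted p = 0.000432).

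EIF2AK3, the PERK kinase that slows translation under stress, read 8.63, 8.59 and 8.52 at 37 °C and 8.62, 8.42 and 8.63 at 40 °C. These groups overlap, with a difference of -0.02 (SE 0.07, limma adjusted p = 0.822). It read 9.30, 9.08 and 9.18 in the controls and 8.78, 8.95 and 8.90 with the inhibitor. The inhibitor arrays were all lower (log2 difference -0.31, SE 0.08, adjusted p = 0.0152), a call lost without control replicate 1 (-0.25) or inhibitor replicate 1 (-0.26). ERN1, which encodes the kinase and nuclease IRE1, was faint: 4.35, 4.14 and 4.69 at 37 °C, 4.33, 4.47 and 4.41 at 40 °C, 5.11, 5.20 and 5.12 in the controls and 5.0, 4.94 and 5.17 with the inhibitor. Its means at both temperatures (4.39 and 4.40) were below the log2 value of 4.48 that the mean of a gene had to reach to be tested, and its differences of 0.01 (SE 0.12, adjusted p = 0.959) and -0.11 (SE 0.08, adjusted p = 0.282) were not called.

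**Figure D2:**
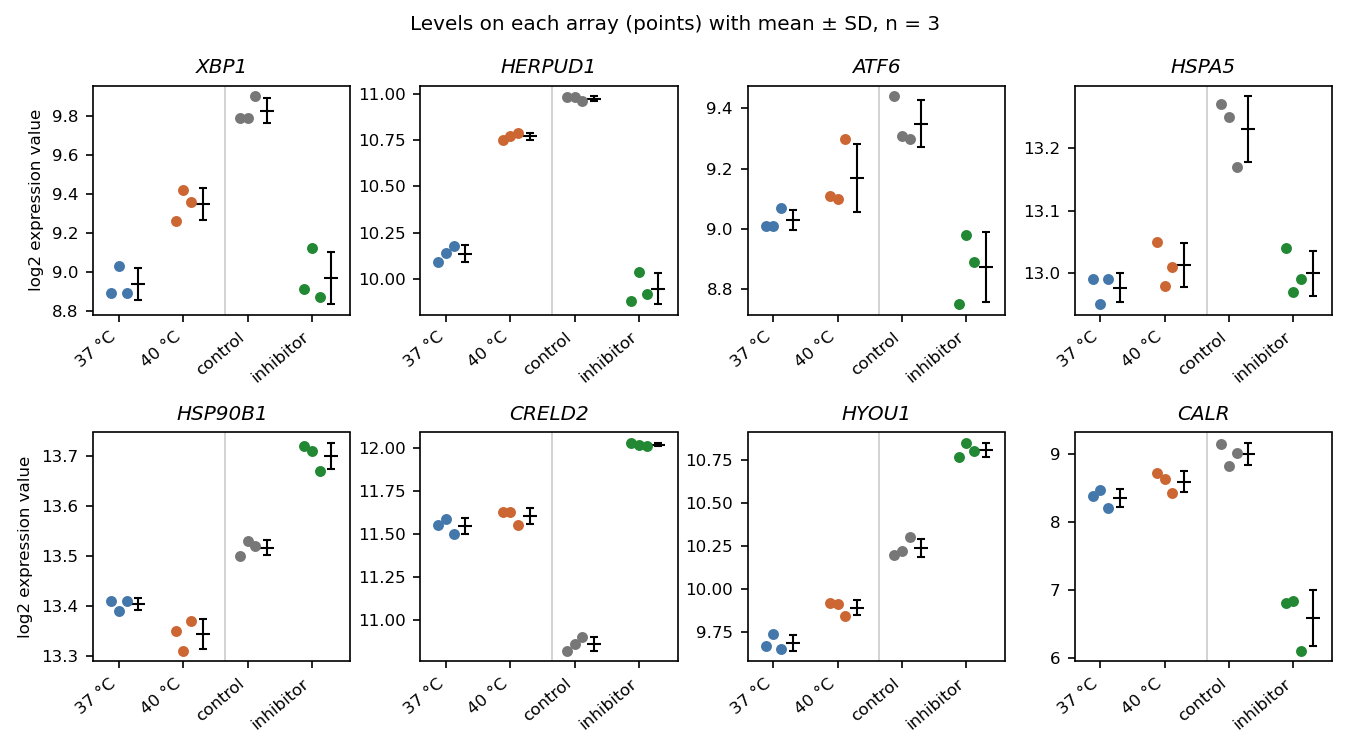
Log2 expression value on each array (points) for 8 genes, with the mean and SD of the 3 arrays of a group beside them. Each panel has its own vertical axis, which does not start at 0, and the grey line divides the 2 experiments. XBP1 and HERPUD1 are higher at 40 °C than at 37 °C and lower with the inhibitor than in the controls, whereas CRELD2 and HYOU1 are higher with the inhibitor. HYOU1 is shown from its brightest probe set, and 3 of its others were called lower with the inhibitor.

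The lumenal chaperones gave 3 genes higher and none lower of 7 at 40 °C, beside 21.6% and 17.7% of all genes tested. With the inhibitor 3 were higher and 1 lower, beside 25.6% and 19.6%. HSPA5, the HSP70 of the ER lumen (BiP) and a common marker of the response, read 12.99, 12.95 and 12.99 at 37 °C and 13.05, 12.98 and 13.01 at 40 °C. The groups overlap and the difference of 0.04 (SE 0.04) was not called (limma adjusted p = 0.563). It read 13.27, 13.25 and 13.17 in the controls and 13.04, 12.97 and 12.99 with the inhibitor. All inhibitor arrays were below the controls, by 1.17-fold (log2 difference -0.23, SE 0.06, adjusted p = 0.0149), a call lost without control replicate 1 (-0.21, adjusted p = 0.0559). The fall was larger in 4 of the other HSPA5 probe sets, at -0.52, -1.44, -1.32 and -1.33, and the faintest differed by 0.06 and was not called. At 40 °C that faintest probe set was called lower (-0.48, limma adjusted p = 0.000974), and no other HSPA5 probe set was called.

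HSP90B1, the HSP90 of the ER lumen (GRP94), read 13.41, 13.39 and 13.41 at 37 °C and 13.35, 13.31 and 13.37 at 40 °C. The arrays at 40 °C were all slightly lower, and the difference of -0.06 (SE 0.04) was not called (limma adjusted p = 0.314). It read 13.50, 13.53 and 13.52 in the controls and 13.72, 13.71 and 13.67 with the inhibitor, where all arrays were higher by 1.14-fold (log2 difference 0.18, SE 0.05, adjusted p = 0.0256). That call was lost without any 1 of the 3 controls or without inhibitor replicate 1 (0.17 to 0.19, adjusted p = 0.0588 to 0.0847). Tested singly, 2 of the 7 HSP90B1 probe sets were called higher with the inhibitor and 0 lower, with differences from -0.06 to 0.25. Their mean differed by 0.10 and was not called (limma adjusted p = 0.198). On their brightest probe sets, HSPA5 and HSP90B1, which both hold an ERSE, thus had inhibitor effects of opposite sign.

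HYOU1, a large relative of HSP70 that acts as a nucleotide exchange factor for HSPA5, read 9.67, 9.74 and 9.65 at 37 °C and 9.92, 9.91 and 9.84 at 40 °C. It read 10.20, 10.22 and 10.30 in the controls and 10.77, 10.85 and 10.80 with the inhibitor. Neither pair of groups overlapped, and it rose by 1.15-fold at 40 °C (limma adjusted p = 0.011) and by 1.48-fold with the inhibitor (log2 difference 0.57, SE 0.06, adjusted p = 0.000272). The 9 HYOU1 probe sets spread from -0.99 to 0.57 with the inhibitor, 1 called higher and 3 lower, and their mean differed by -0.25, so the direction rests on the probe set.

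CRELD2, an ER-resident protein induced by ER stress, read 11.55, 11.59 and 11.50 at 37 °C and 11.63, 11.63 and 11.55 at 40 °C. These groups overlap (difference 0.06, SE 0.05, limma adjusted p = 0.407). It read 10.82, 10.86 and 10.90 in the controls and 12.03, 12.02 and 12.01 with the inhibitor, where the arrays were all far above the controls, by 2.23-fold (log2 difference 1.16, SE 0.05, adjusted p = 1.23e-05). The other CRELD2 probe set, below the filter on signal, differed by 0.03.

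MANF, a secreted ER stress-response protein, rose at 40 °C from 11.81, 11.82 and 11.76 to 12.16, 12.11 and 12.07. All arrays at 40 °C were higher, by 1.25-fold (log2 difference 0.32, SE 0.05, limma adjusted p = 0.00106). The inhibitor groups overlapped for MANF, at 11.78, 11.67 and 11.68 in the controls and 11.79, 11.82 and 11.75 with the inhibitor (difference 0.08, SE 0.06, adjusted p = 0.325), and the difference between the 2 effects was called (-0.24, adjusted p = 0.013). SIL1, a nucleotide exchange factor of HSPA5, rose by 0.16 at 40 °C (adjusted p = 0.0223), which was lost without any 1 of 4 arrays (replicates 1 and 3 at 37 °C, 1 and 2 at 40 °C; 0.14 to 0.17), and differed by 0.05 with the inhibitor (adjusted p = 0.592). SDF2L1, a co-factor of HSPA5 and its J-proteins, differed by 0.01 and -0.04 and was not called in either comparison.

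Of the 8 measured disulfide isomerases and oxidases, 2 rose and 1 fell at 40 °C, beside 21.6% and 17.7% of all genes tested. With the inhibitor 3 rose and 2 fell, beside 25.6% and 19.6%. PDIA5 fell in both. It read 8.50, 8.58 and 8.52 at 37 °C and 8.15, 8.04 and 7.97 at 40 °C, with every array at 40 °C lower, by 1.39-fold (log2 difference -0.48, SE 0.06, limma adjusted p = 0.000406). It read 8.07, 8.0 and 8.16 in the controls and 7.70, 7.80 and 7.63 with the inhibitor, again with every array lower, by 1.29-fold (log2 difference -0.37, SE 0.07, adjusted p = 0.00476). The 2 effects were not called different (0.11, adjusted p = 0.344).

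PDIA4, a disulfide isomerase, read 12.42, 12.42 and 12.46 at 37 °C and 12.50, 12.50 and 12.57 at 40 °C (difference 0.09, limma adjusted p = 0.153). It read 12.37, 12.26 and 12.43 in the controls and 12.67, 12.83 and 12.73 with the inhibitor, where all arrays were higher, by 1.31-fold (log2 difference 0.39, SE 0.07, adjusted p = 0.00363). PDIA6, a further isomerase, rose in both comparisons, by 1.14-fold at 40 °C (adjusted p = 0.00716) and by 1.24-fold with the inhibitor (adjusted p = 0.00337), and all 3 of its probe sets were called higher at 40 °C. P4HB, the main protein disulfide isomerase, differed by 0.05 at 40 °C (adjusted p = 0.417) and rose by 1.18-fold with the inhibitor (adjusted p = 0.00773), where 4 of its 6 probe sets were called higher and 1 lower (-1.87) and their mean differed by -0.08. PDIA3, the isomerase that acts on glycoproteins with calnexin and calreticulin, differed by -0.10 at 40 °C (adjusted p = 0.107) and fell by 1.26-fold with the inhibitor (log2 difference -0.33, adjusted p = 0.0124). The other PDIA3 probe set was called lower at 40 °C (-0.65) and differed by 0.20 with the inhibitor, and the mean of both was called at 40 °C (-0.38) and not with the inhibitor (-0.067).

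ERO1A, the oxidase that recharges P4HB, rose by 1.16-fold at 40 °C (log2 difference 0.21, SE 0.05, limma adjusted p = 0.0079) and differed by -0.24 with the inhibitor (SE 0.09, adjusted p = 0.065). The latter was called without inhibitor replicate 2 (-0.33, adjusted p = 0.0106), but its other probe set differed by 0.23 and the mean of both by -0.003. The difference between the 2 effects was called (-0.45, adjusted p = 0.00354). Its relative ERO1B (0.14 and 0.07) and the thioredoxin-like TXNDC11 (-0.07 and 0.21) were called in neither comparison.

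None of the 3 genes of the calnexin cycle was called at 40 °C, beside 21.6% higher and 17.7% lower of all genes tested. With the inhibitor 1 was called higher and 2 lower, beside 25.6% and 19.6%. CALR, the soluble lectin calreticulin, read 8.38, 8.47 and 8.21 at 37 °C and 8.72, 8.63 and 8.42 at 40 °C. The groups overlap (difference 0.24, SE 0.09, limma adjusted p = 0.0791), and without replicate 3 at 40 °C the difference was called (0.32, adjusted p = 0.0253). It read 9.15, 8.82 and 9.02 in the controls and 6.80, 6.84 and 6.10 with the inhibitor. The inhibitor arrays were far below the controls, with replicate 3 lowest, a 5.34-fold fall (log2 difference -2.42, SE 0.20, adjusted p = 0.000101). The other CALR probe set also fell, by 0.49.

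CANX, the membrane lectin calnexin, went the other way. It read 12.71, 12.74 and 12.71 at 37 °C and 12.63, 12.63 and 12.67 at 40 °C, where the arrays were slightly lower without a call (difference -0.08, SE 0.04, limma adjusted p = 0.193). Of its 9 probe sets, 2 were called higher (0.36 and 0.40) and 1 lower (-0.39) at 40 °C. It read 12.37, 12.36 and 12.38 in the controls and 12.84, 12.84 and 12.88 with the inhibitor, all higher, by 1.40-fold (log2 difference 0.48, SE 0.05, adjusted p = 0.00033), and 6 of the 9 probe sets were called higher and none lower. The difference between the 2 effects was 0.56 for CANX (adjusted p = 9.12e-06) and -2.65 for CALR (adjusted p = 4.22e-06). UGGT1, the folding sensor that re-glucosylates unfolded glycoproteins, differed by 0.01 at 40 °C and fell by 0.29 with the inhibitor (adjusted p = 0.0318). That call was lost without any 1 of 5 of the 6 arrays (all but inhibitor replicate 2; -0.32 to -0.20), and another of its 3 probe sets was called higher (0.71).

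Of the 10 genes of ER-associated degradation, 6 were called higher and 3 lower at 40 °C, beside 21.6% and 17.7% of all genes. With the inhibitor 3 were called higher and 4 lower, beside 25.6% and 19.6%. Among the calls at 40 °C, those of DERL3 and OS9 were lost without most single arrays and EDEM1 depends on the probe set, as given with each gene. HERPUD1, a membrane protein that helps assemble the degradation complex, read 10.09, 10.14 and 10.18 at 37 °C and 10.75, 10.77 and 10.79 at 40 °C. Every array at 40 °C was higher, by 1.55-fold (log2 difference 0.63, SE 0.04, limma adjusted p = 3.88e-05). It read 10.98, 10.98 and 10.96 in the controls and 9.88, 10.04 and 9.92 with the inhibitor, where every array was lower, by 2.04-fold (log2 difference -1.03, SE 0.06, adjusted p = 3.01e-05). The 2 effects differed by -1.66 (SE 0.07, adjusted p = 1.33e-08). The 3 HERPUD1 probe sets above the filter were all called higher at 40 °C (0.63, 0.59 and 0.54) and lower with the inhibitor (-1.03, -0.91 and -0.82).

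The EDEM proteins, which trim mannose from misfolded glycoproteins and so mark them for degradation, did not move together at 40 °C. EDEM2 read 7.59, 7.64 and 7.50 at 37 °C and 8.08, 8.10 and 7.94 at 40 °C, all higher, by 1.38-fold (log2 difference 0.46, SE 0.06, limma adjusted p = 0.00066). EDEM3 read 11.09, 11.03 and 11.07 at 37 °C and 10.60, 10.52 and 10.59 at 40 °C, all lower, by 1.41-fold (log2 difference -0.49, SE 0.05, adjusted p = 0.000122), and all 5 of its probe sets were called lower. EDEM1 read 11.29, 11.28 and 11.40 at 37 °C and 10.84, 10.72 and 10.75 at 40 °C, all lower, by 1.47-fold (log2 difference -0.55, SE 0.05, adjusted p = 0.000169). The other 4 EDEM1 probe sets differed the opposite way (0.11 to 0.33, 3 of them called higher), and the mean of all 5 differed by 0.09 without a call. The direction of EDEM1 at 40 °C therefore depends on the probe set.

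With the inhibitor, EDEM1 read 10.78, 10.55 and 10.73 in the controls and 10.60, 10.58 and 10.67 with it, groups that overlap (difference -0.07, limma adjusted p = 0.476), while its other 4 probe sets were all called lower. EDEM2 read 7.94, 7.80 and 7.95 against 7.64, 7.81 and 7.62, also overlapping (difference -0.21, adjusted p = 0.0625), and was called without control replicate 2 (-0.26) or inhibitor replicate 2 (-0.27), while its other, faint probe set was called higher (0.29). EDEM3 read 10.82, 10.80 and 10.83 against 10.97, 11.03 and 10.96, all higher (0.17, SE 0.05, adjusted p = 0.037), a call lost without any 1 of the 6 arrays (0.15 to 0.18, adjusted p = 0.0599 to 0.0976). Its difference between the 2 effects was called (0.66, adjusted p = 5.2e-06).

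The derlins, membrane proteins of the return to the cytosol, were all called higher at 40 °C. DERL2 read 10.00, 10.09 and 9.97 at 37 °C and 10.34, 10.27 and 10.27 at 40 °C, all higher, by 1.21-fold (log2 difference 0.27, SE 0.05, limma adjusted p = 0.00343). It read 10.08, 9.98 and 10.08 in the controls and 9.65, 9.84 and 9.71 with the inhibitor, all lower, by 1.24-fold (log2 difference -0.31, SE 0.07, adjusted p = 0.00885). DERL1 rose by 1.16-fold at 40 °C (adjusted p = 0.00503) and fell by 0.17 with the inhibitor (adjusted p = 0.0433), the latter lost without any 1 of 5 of the 6 arrays (all but inhibitor replicate 2; -0.19 to -0.15). DERL3 rose by 0.16 at 40 °C (adjusted p = 0.043), which was lost without any 1 of 5 of the 6 arrays (all but replicate 3 at 40 °C; 0.12 to 0.17), and differed by 0.16 with the inhibitor (adjusted p = 0.22). With the inhibitor 2 of the other DERL3 probe sets were called higher (0.76 and 0.51), and averaging all 4 gave a called difference of 0.41 (adjusted p = 0.00447).

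SYVN1, the ubiquitin ligase HRD1 at the centre of this route, rose in both comparisons by similar amounts. It read 8.77, 8.76 and 8.68 at 37 °C, 9.03, 8.90 and 8.97 at 40 °C, 9.69, 9.65 and 9.66 in the controls and 9.87, 9.94 and 9.86 with the inhibitor. Neither pair of groups overlapped, with log2 differences of 0.23 (SE 0.05, limma adjusted p = 0.00928) and 0.22 (SE 0.06, adjusted p = 0.0136), the second lost without control replicate 3 (0.22, adjusted p = 0.0547). SEL1L, its partner and adaptor, differed by -0.05 at 40 °C (adjusted p = 0.429) and fell by 0.27 with the inhibitor (adjusted p = 0.0112), a call lost without control replicate 3 (-0.23, adjusted p = 0.0515). OS9, a lectin that hands glycoproteins to SEL1L, read 9.35, 9.42 and 9.35 at 37 °C, 9.25, 9.21 and 9.19 at 40 °C, 9.21, 9.31 and 9.36 in the controls and 9.91, 9.94 and 9.89 with the inhibitor. It was lower at 40 °C on all arrays (log2 difference -0.16, adjusted p = 0.0259), which was lost without any 1 of 5 of the 6 arrays (all but replicate 1 at 40 °C; -0.17 to -0.13). With the inhibitor it was higher on all arrays, by 1.54-fold (log2 difference 0.62, SE 0.06, adjusted p = 0.00023), and 5 of its 6 probe sets were called higher and 1 lower.

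In the translocon, SSR3 and SSR1 encode subunits of the translocon-associated protein complex, and the directions of SSR3 depend on the probe set. SSR3 read 10.72, 10.75 and 10.67 at 37 °C and 11.13, 11.13 and 11.08 at 40 °C, all higher, by 1.32-fold (log2 difference 0.40, SE 0.04, limma adjusted p = 0.000298). It read 11.07, 11.15 and 11.16 in the controls and 10.80, 10.91 and 10.87 with the inhibitor, all lower, by 1.20-fold (log2 difference -0.27, SE 0.06, adjusted p = 0.00914). Its other 3 probe sets were called lower at 40 °C (-0.77, -0.31 and -0.67), and the mean of its 4 probe sets differed by -0.34 at 40 °C and 0.15 with the inhibitor, the signs that SSR1 has. SSR1 fell by 0.19 at 40 °C (adjusted p = 0.0148, lost without replicate 1 at 37 °C, -0.18), with 5 of its 8 probe sets called lower and 1 higher, and rose by 0.31 with the inhibitor (adjusted p = 0.00313), with 6 called higher and none lower.

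SEC61A1, the pore of the channel, read 10.51, 10.49 and 10.41 at 37 °C and 10.67, 10.62 and 10.57 at 40 °C. The arrays at 40 °C were all higher (0.15, limma adjusted p = 0.0454), a call lost without any 1 of the 6 arrays (0.12 to 0.17, adjusted p = 0.0519 to 0.145) and with another probe set called lower (-0.20). It read 10.52, 10.48 and 10.40 in the controls and 10.92, 10.89 and 10.91 with the inhibitor, all higher, by 1.36-fold (log2 difference 0.44, SE 0.06, adjusted p = 0.000793). SEC61B, a small channel subunit, differed by -0.02 at 40 °C and 0.13 with the inhibitor and was called in neither (adjusted p = 0.748 and 0.108).

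Of the 36 genes, 29 had more than 1 probe set, 125 probe sets in all with those of the other 7. Each probe set was also tested alone, with p-values adjusted over all 44994 probe sets of 1 symbol. A probe set called against the direction of the gene's own call was found for 4 genes at 40 °C (EDEM1, SEC61A1, SSR1 and SSR3) and for 6 with the inhibitor (HYOU1, P4HB, UGGT1, EDEM3, OS9 and SSR3). Averaging over the probe sets also ended the calls of HYOU1 (0.089), DERL1 (0.092) and OS9 (-0.12) at 40 °C and of HSP90B1 (0.10), SEL1L (0.02), SYVN1 (0.06) and EDEM3 (0.004) with the inhibitor. It called PDIA4 (0.16) and ERO1B (0.14) higher at 40 °C and EDEM1 (-0.33) lower with the inhibitor. Which part of a transcript each probe set reads was not analysed here.

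**Figure D3:**
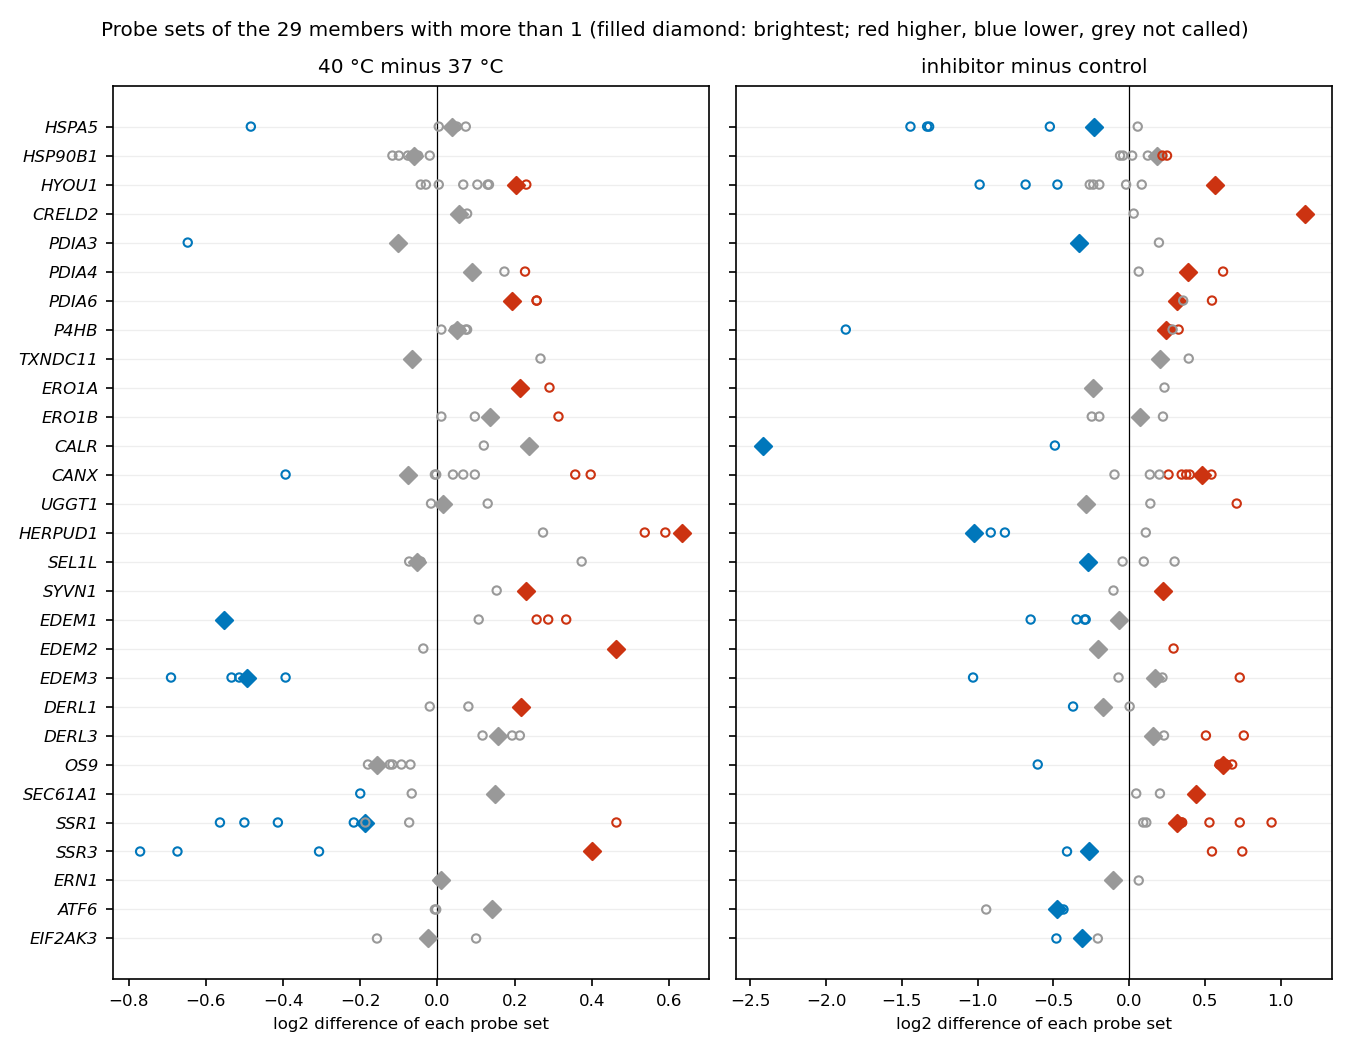
Log2 difference of every probe set of the 29 genes with more than 1, at 40 °C against 37 °C (left) and with the inhibitor against the control (right), on different scales. The filled diamond is the brightest probe set, and colours are calls adjusted over all probe sets, so a few diamonds called among genes are grey here. HERPUD1 and EDEM3 lie on the same side at 40 °C for every probe set, whereas SSR3 and EDEM1 lie on both sides.

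A wider list of 93 other genes of the pathway, of which 89 were tested, gave 27 higher (30.3%, beside 21.6% of all genes) and 14 lower (15.7%, beside 17.7%) at 40 °C. With the inhibitor it gave 27 higher (30.3%, beside 25.6%) and 25 lower (28.1%, beside 19.6%). Each gene of this list was read from its brightest probe set, and its other probe sets were not compared gene by gene. Higher at 40 °C were SERPINH1, the collagen chaperone HSP47, by 1.96-fold (log2 difference 0.97, SE 0.05, limma adjusted p = 7.16e-06), the proline isomerase FKBP7 by 1.56-fold, DNAJB9, a J-protein of HSPA5, by 1.54-fold, and the stress transcription factor ATF3 by 1.45-fold. Lower at 40 °C were the membrane thioredoxins TMX4, by 2.17-fold (log2 difference -1.12, SE 0.05, adjusted p = 7.34e-06), and TMX3, by 1.47-fold, with the glucosyltransferase UGGT2 by 1.57-fold and the calcium-binding NUCB2 by 1.46-fold. The collagen chaperone and the J-protein thus rose where HSPA5 itself was not called on its brightest probe set.

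The wider list held 14 tested genes of unfolded protein response signalling and the PERK arm. With the inhibitor 7 of them fell and 1 rose, beside 19.6% and 25.6% of all genes. At 40 °C 2 fell and 4 rose, beside 17.7% and 21.6%. With the spike covariate 3 of the 89 genes of the wider list were called lower with the inhibitor and 0 higher in limma. At an unadjusted p under 0.05, 9 were higher, and no such count is given for lower genes. TRIB3, a pseudokinase induced by ATF4, read 11.09, 11.15 and 11.08 in the controls and 9.49, 9.57 and 9.40 with the inhibitor, all far lower, by 3.07-fold (log2 difference -1.62, SE 0.07, limma adjusted p = 7.49e-06). ATF6B, the paralogue of ATF6, read 8.63, 8.73 and 8.88 against 7.16, 7.01 and 7.28, all lower, by 3.02-fold (log2 difference -1.60, SE 0.09, adjusted p = 2.72e-05). ATF4, the transcription factor of the PERK arm, read 12.73, 12.72 and 12.68 against 12.01, 12.03 and 11.99, all lower, by 1.62-fold (log2 difference -0.70, SE 0.05, adjusted p = 7.42e-05). SEC24D, a coat protein of vesicles that leave the ER, fell by 2.12-fold. At 40 °C, ATF6B was 1.28-fold higher (adjusted p = 0.00365), whereas TRIB3 (-0.03), ATF4 (0.08) and SEC24D (0.06) were not called. Higher with the inhibitor were SEC11C, a signal peptidase subunit, by 1.82-fold (adjusted p = 8.84e-05), NPLOC4, a cofactor of the VCP extraction motor, by 1.57-fold, and the ubiquitin-conjugating enzyme UBE2G2 and the cargo lectin LMAN2, each by 1.55-fold.

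The arrays had medians of 5.72 to 5.87, and arrays of a group correlated at 0.9939 to 0.9984 over all probe sets that are not controls. The poly-A spikes, mentioned above for the inhibitor, averaged 7.68 ± 0.04 at 37 °C and 7.77 ± 0.04 at 40 °C (SD, n = 3). With this level as a covariate 3 genes were called higher at 40 °C (HERPUD1, EDEM2 and SSR3) and 3 lower (PDIA5, EDEM1 and EDEM3). The difference between the 3′ and 5′ probe sets of GAPDH, a measure of RNA integrity and labelling, was 0.38 ± 0.02 at 37 °C, 0.44 ± 0.10 at 40 °C, 1.04 ± 0.04 in the controls and 0.72 ± 0.09 with the inhibitor. With it as a covariate, CRELD2, CANX and OS9 were called higher with the inhibitor and CALR, HERPUD1, XBP1, ATF6, DERL2 and ERO1A lower. The GAPDH ranges of the controls (0.99 to 1.06) and the inhibitor arrays (0.62 to 0.78) do not overlap. This measure and the inhibitor therefore cannot be told apart either.

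**Figure D4:**
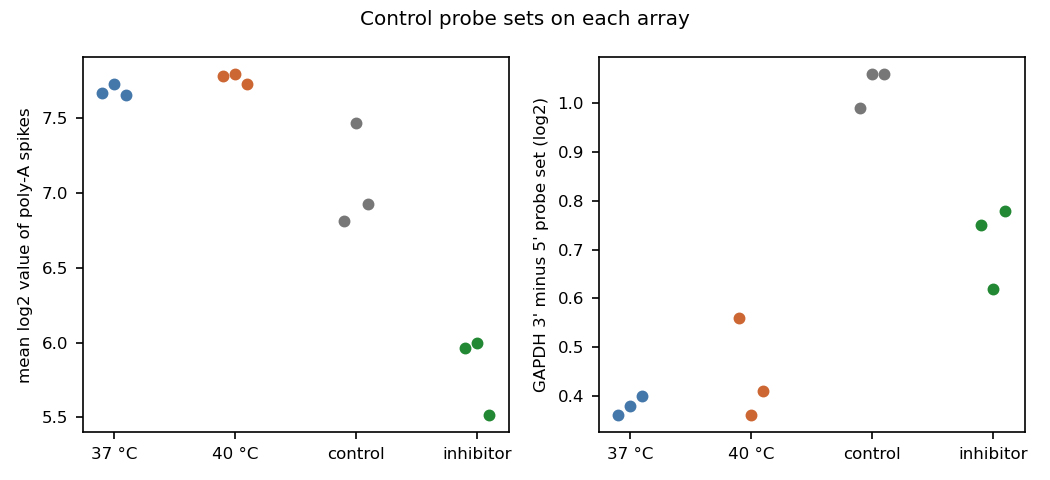
Mean log2 value of 24 poly-A spike probe sets (left) and the GAPDH 3′ minus 5′ difference (right) on each array, by group, on axes that do not start at 0. The inhibitor arrays have the lowest spike values (5.51 to 6.0) and the controls the widest GAPDH differences (0.99 to 1.06).

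Of 10 monocyte and macrophage markers, 9 were measured and 8 passed the filter on signal, while MRC1, a receptor of alternatively activated macrophages, was below it (2.94 to 3.30 in group means). Their summed log2 level ran from 86.75 to 87.45 at 37 °C, 87.72 to 88.60 at 40 °C, 86.53 to 86.87 in the controls and 81.13 to 82.13 with the inhibitor. Of the 8, 5 were called higher and 2 lower at 40 °C, beside 21.6% and 17.7% of all genes tested. With the inhibitor 1 was called higher and 6 lower, beside 25.6% and 19.6%. The part of this shift in the inhibitor results above was not tested. Group means of the markers measured were 3.89 to 5.92 for lymphocytes (5 genes, 3 above the filter), 3.71 to 6.60 for erythroid cells (3 genes, 2 above it) and 2.88 to 5.11 for epithelium and fibroblasts (5 genes, 3 above it). Of these, KRT19 was called higher at 40 °C and none was called with the inhibitor.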

How the data were processed

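The deposited log2 expression values of 49395 probe sets on 12 PrimeView arrays were used as given. The unit was read from the values, with their background correction, normalization and software not given in the sources used here. Gene names came from the platform's gene table, in which 44994 have 1 symbol and 1832 several, and each gene was read from the probe set of highest mean over all arrays. Genes whose mean reached the 30th percentile of non-control probe sets (log2 4.48) were tested.

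limma 3.58.1 (R 4.3.3; lmFit, then eBayes; two-sided) was run for each comparison on its own 6 arrays, and the difference between the comparisons on all 12, with Benjamini-Hochberg adjustment over 13909 genes and a threshold of 0.05. For 3 arrays against 3 the smallest p of an exact permutation test is 0.1, so none was run. Folds are ratios from differences of mean log2 values. Promoters were searched with Python 3.11.15 and pandas 2.3.3, and figures drawn with matplotlib 3.10.9. The procedure was tested on simulated data.

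The members, the wider pathway list and the markers were chosen with earlier results of these data known, and the p-values do not allow for that. Values on every array are given for HSPA5, HSP90B1, XBP1, ATF6, ERN1 and EIF2AK3 and, per comparison, for the 10 largest called differences among genes whose groups do not overlap. Of the wider list, up to 4 called genes per comparison and direction were taken by p. TRAF2 and KDELR2 of that list had no probe set under 1 symbol, and some of its genes are not reported here. Alternatives were a joint fit, the replicate number as a block, other filters, the average over a gene's probe sets, each probe set alone, quantile normalization, centring, trend and robust eBayes, array weights, the spike and GAPDH covariates, and leaving out each array. Replicate numbers did not pair the arrays: deviations of same-numbered arrays correlated at -0.133, -0.102 and 0.227 for temperature and at -0.187, -0.604 and -0.154 for the inhibitor.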

Additional observations from a re-analysis of the deposited data

How the results depend on the processing

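Over the alternatives, the log2 difference of a gene kept its call, or its lack of one, in 577 values at 40 °C and 530 with the inhibitor. It lost its call in 56 and 87, gained one in 11 and 25 and reversed in 3 and 5. A reversal was a change of sign where at least 1 of the 2 fits compared gave a call. Changes of sign between values without a call were counted as kept, as for HSPA5 at 40 °C (-0.047 to 0.068). For the difference between the comparisons the numbers were 657, 45, 11 and 6. All reversals of this kind came from averaging a gene's probe sets: at 40 °C EDEM1 (0.086), SEC61A1 (-0.039) and SSR3 (-0.34), with the inhibitor HYOU1 (-0.25), P4HB (-0.08), UGGT1 (0.19), SEL1L (0.02) and SSR3 (0.15), and for the difference HYOU1 (-0.33), PDIA3 (0.31), P4HB (-0.13), UGGT1 (0.15), EDEM1 (-0.42) and SSR3 (0.49). With the poly-A spike covariate, counts at 40 °C were 3 members higher (14 without) and 3 lower (5), 10 other pathway genes higher (27), and 1220 genes higher (3007) and 1453 lower (2465) in all. With the inhibitor they were 1 member higher (12) and 0 lower (13, and 6 at an unadjusted p under 0.05, limma), 0 other pathway genes higher (27, and 9 unadjusted) and 3 lower (25), and 65 genes higher (3567) and 208 lower (2721) in all. The members CRELD2, OS9, HYOU1, CANX and SEC61A1 were higher at the unadjusted threshold. With the GAPDH covariate, chosen after seeing the data, the inhibitor counts were 3 members higher and 6 lower, 3 other pathway genes higher and 10 lower, and 1408 genes higher and 1702 lower in all. Trend and robust eBayes called 8 members lower at 40 °C, and array weights 5527 genes higher with the inhibitor. The causes were not tested. Leaving out each array gave 3 to 5 members lower at 40 °C, 3 without replicate 1 at 37 °C, where OS9 and SSR1 were lost. It gave 11 to 14 higher at 40 °C, 9 to 11 higher and 9 to 15 lower with the inhibitor, and 22 to 27 differing between comparisons. With the replicate number as a block, which does not pair the arrays, 12 members were higher and 4 lower at 40 °C, 8 higher and 9 lower with the inhibitor, 21 differed between comparisons, and 16 other pathway genes were lower with the inhibitor (25 without). The median difference of all genes was 0.01 at 40 °C and 0.09 with the inhibitor, and 0.01 and 0.10 after quantile normalization. With 3 arrays a group and values from 1 probe set a gene, signal near background limits ERN1 most.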
